A study of Mus musculus with 32 samples.

Results

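E171 is food-grade titanium dioxide, a white pigment that is used to colour sweets, sauces and pastries. The effect of E171 on liver mRNA that 2 diets have in common was taken from all 32 arrays of the series, each holding the liver RNA of 1 mouse. It is the mean of the difference between E171 and control mice on the normal diet and the same difference on the Western diet, so that 16 E171 mice stand against 16 control mice with diet held fixed. The groups of 8 mice were normal diet with E171, normal diet without it, Western diet with E171 and Western diet without it.

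All mice were male F1 animals of the C57BL/6J strain, killed by cervical dislocation at 21 weeks of age. Their F0 mothers had eaten pellets with or without the additive for 40 days before mating, and the offspring stayed on the pellets of the mother from birth on. The pellets were made up for a dose of 10 mg E171 per kg of body weight per day, which is a target and not a measured intake. The Western diet, which the treatment protocol calls high in fat, began at 5 weeks of age and lasted 16 weeks. Litter, cage and the hour of death are not given in the labels, so the p-values measure the spread between these mice, which littermates may share.

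Each level below is the log2 of the array's background-corrected signal minus the 75th percentile of that array, so that 0 is the level of a probe at this percentile. A difference is the E171 level minus the control level on this log2 scale, with its standard error (SE). A negative difference means a lower level with E171. Probes entered the test if the scanner software marked them as well above background in 6 or more of the 8 mice of any group, which held for 35777 probes. A probe was called when its p-value from limma, adjusted over all kept probes, lay under 0.05. A gene stands for its brightest kept probe.

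The 75th percentile of the signal lay between 175.0 and 341.7 intensity units, 32164 to 37261 probes were well above background on an array, and no spot was saturated. The arrays lay on 4 slides with 2 mice of every group on each. Levels on arrays of the same group correlated at 0.980 to 0.995. The labelled tissue was checked by its hepatocyte markers, which were all measured, with albumin (Alb) at a mean level of 10.88 and 10.60 in E171 mice on the normal and the Western diet, against 10.85 and 10.57 in controls.

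Several response systems of the liver are followed below, although they hold 9 of the 69 called genes with a symbol, and all 46 gene lists together hold 15. Heat shock proteins are chaperones that refold damaged proteins and are switched on by the transcription factor HSF1. Glucocorticoids, the adrenal hormones of stress and fasting, act through a nuclear receptor on genes such as Zbtb16 and Cebpd, and the tumour suppressor p53 acts on Cdkn1a. A circadian clock runs in every hepatocyte and drives daily rhythms of output factors such as Dbp and Nfil3.

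With E171, liver mRNA of the chaperone genes Hspa1a, Hspa1b and Dnajb1, of Zbtb16, Cebpd, Cdkn1a and Igfbp1 and of the chemokines Ccl2 and Ccl7 fell, and that of the clock output factor Dbp rose. In all, 120 of 35777 probes (0.335%) were called, 64 higher (0.179%) and 56 lower (0.157%) in E171 mice. They include the brightest probes of 69 genes with a symbol, 36 higher and 33 lower. Over all 23647 genes, by their brightest probes and with or without a symbol, 0.364% were called, 0.173% lower and 0.19% higher; 44.7% had a negative difference and 55.3% a positive one. Differences were small: 66 of the 120 probes differed by less than 0.5, and 14 by at least 1. Without adjustment, 2343 probes (6.55%) were higher and 1643 (4.59%) lower at a p-value under 0.05. The split between higher and lower calls depended on the scaling, with 48 higher and 62 lower after quantile normalization and 30 higher and 75 lower in the values that the authors deposited.

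The number of calls also depended on single arrays and slides. Leaving out slide 1, 2, 3 or 4 gave 66, 26, 2 and 23 calls, and the 2 calls left without slide 3 were Cd163l1 and Gm36572. All 120 called probes kept their sign, each at an unadjusted p-value under 0.05, whichever slide was left out, although these are the mice that chose them. Leaving out 1 array moved the count by more than 1.5 times in 7 cases. The count was 75 without replicate 4 and 77 without replicate 5 of the E171 mice on the normal diet. It was 76 without replicate 5 and 74 without replicate 7 of the normal-diet controls. On the Western diet it was 74 without replicate 5 and 67 without replicate 8 of the E171 mice, and 63 without replicate 7 of the controls. The bars of calls by array and slide left out show these counts beside those for the other arrays.

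**Figure D1:**
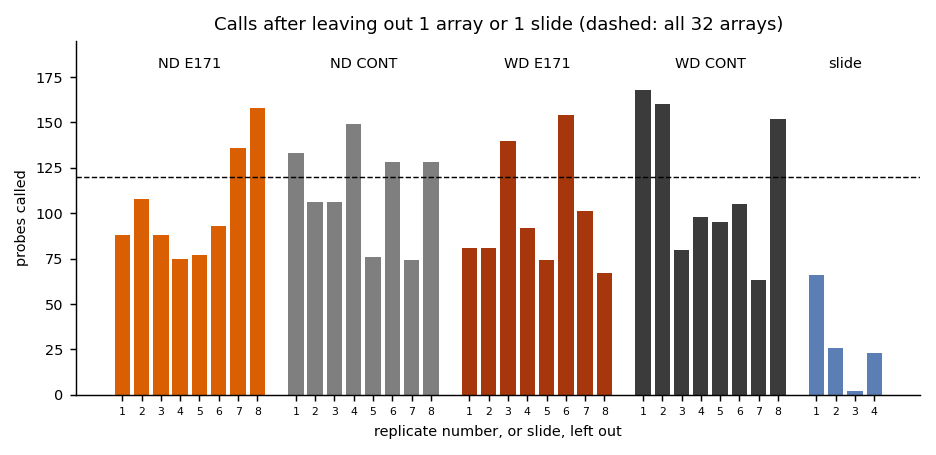
Number of probes called for the E171 difference averaged over both diets (vertical axis) when 1 array, given by group and replicate number, or 1 slide is left out (horizontal axis); the dashed line is the count of 120 with all 32 arrays. Leaving out slide 3 left 2 calls, and leaving out 1 array left between 63 and 168.

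Of 15 measured members of the heat shock list, 3 chaperone genes fell in E171 livers and 12 did not pass. All 15 had a negative difference, against 44.7% of all genes, with a median of -0.24 against 0.01 over all genes. Hspa1a, an inducible HSP70 chaperone, ran from -0.88 to 0.02 (median -0.30) in E171 mice on the normal diet, against 0.01 to 1.67 (median 0.61) in controls. On the Western diet it ran from -2.03 to -0.20 (median -1.02) in E171 mice, against -0.83 to 1.18 (median 0.68) in controls. Every E171 mouse lay below the control median of its diet, and the groups overlapped slightly on both diets. The mean difference was -1.30 (SE 0.18, adjusted p = 0.000732), a 2.47-fold lower level, with -1.63 to -0.87 within the 4 slides.

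Hspa1b, which encodes an almost identical HSP70 chaperone, fell by 1.18 (SE 0.24, adjusted p = 0.0214), with a difference of -0.51 on the normal diet and -1.86 on the Western diet. In Western-diet mice it ran from -0.98 to 1.49 (median -0.20) with E171, against 0.67 to 3.22 (median 1.85) without. Dnajb1, the HSP40 partner that hands substrates to HSP70, fell by 0.59 (SE 0.12, adjusted p = 0.0214). Its levels ran from 3.36 to 4.27 (median 4.01) with E171 on the normal diet, against 3.75 to 4.59 (median 4.25) without. On the Western diet they ran from 2.86 to 3.69 (median 3.10) with E171, against 3.44 to 4.64 (median 3.86) without. The other 12 members did not pass, among them Hsph1, an HSP110 chaperone (-0.45, adjusted p = 0.287), Bag3, a cochaperone of HSP70 (-0.39, adjusted p = 0.144), and Hsf1 itself (-0.02).

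Hspa1a and Hspa1b lie 13.4 kb apart in mm9, at chr17:35106766-35106825 and chr17:35093374-35093405 for their probes, which share no run of more than 5 bases. Because the genes are near-identical copies, signal from one may still reach the probe of the other, and their levels deviated from the group means together (Pearson's r = 0.92, Spearman's rho = 0.93 over 32 mice, permutation p = 1e-05 for each, the smallest that 100000 permutations can give, and r = 0.92 without the 2 mice farthest from the median; of 32 such pairs of called probes computed, the highest p adjusted by Benjamini-Hochberg was 0.0299). The 250 bases before their starts are shown because they are the promoters of the chaperones that fell most, with the core of a heat shock element, GAANNTTC, in capitals. They come from RefSeq for GRCm38.p6, are both on the minus strand and match in 247 of 250 positions.
Hspa1a, chr17:34972157-34972406: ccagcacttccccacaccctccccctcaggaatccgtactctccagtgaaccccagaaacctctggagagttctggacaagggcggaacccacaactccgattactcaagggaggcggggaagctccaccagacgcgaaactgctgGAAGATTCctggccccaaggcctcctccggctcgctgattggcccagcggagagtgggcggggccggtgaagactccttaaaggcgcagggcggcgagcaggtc
Hspa1b, chr17:34959239-34959488: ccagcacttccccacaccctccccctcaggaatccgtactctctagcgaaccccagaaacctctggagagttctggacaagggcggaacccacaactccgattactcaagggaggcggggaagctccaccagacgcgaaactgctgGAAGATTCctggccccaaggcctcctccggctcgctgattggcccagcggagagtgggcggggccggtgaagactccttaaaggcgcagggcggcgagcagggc
The match begins 104 bases before the start in both. The motif reads the same on both strands, and 2199 of 32851 mouse promoters (6.69%) hold it in this window. Of the 11 heat shock genes with a promoter in the table, 6 hold it, and the window of Dnajb1 does not.

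Among 14 measured targets of glucocorticoids, Zbtb16 and Cebpd fell and the other 12 did not pass. The list had 12 negative differences, against 44.7% of all genes, and a median of -0.33 (-0.34 to -0.29 within the slides). Zbtb16 encodes PLZF, a zinc finger repressor that glucocorticoids induce (probe at chr9:48462419-48462478, mm9). It ran from 1.35 to 2.87 (median 2.04) in E171 mice on the normal diet, against 2.46 to 3.62 (median 2.85) in controls. In Western-diet mice it ran from -0.41 to 1.95 (median 0.57) with E171, against 0.77 to 3.80 (median 2.76) without. Its mean difference of -1.55 (SE 0.23, adjusted p = 0.00135), or 2.94-fold lower, was the largest of the genes with a symbol, and its other probe gave -1.40. The difference was -0.95 on the normal diet and -2.16 on the Western diet.

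Cebpd, a C/EBP transcription factor of the acute stress response, fell by 0.61 (SE 0.11, adjusted p = 0.00744). In normal-diet mice it ran from 1.41 to 1.79 (median 1.60) with E171, against 1.62 to 2.66 (median 2.11) without, and in Western-diet mice from 1.74 to 2.63 (median 2.24) with E171, against 2.38 to 3.72 (median 2.91) without. All 16 E171 mice lay below the control median of their diet. The listed members that did not pass included Tsc22d3, the anti-inflammatory factor GILZ (-0.57, adjusted p = 0.116), and Fkbp5, a cochaperone of the receptor (0.01). Nr3c1, the receptor itself, differed by 0.07.

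Igfbp1 and Lpin1, genes of the fasted liver, fell too. Igfbp1 encodes a secreted protein that binds insulin-like growth factors and that insulin represses. It ran from 4.05 to 6.31 (median 5.29) in E171 mice on the normal diet, against 4.40 to 7.17 (median 6.54) in controls, and from 3.64 to 5.13 (median 4.47) in E171 mice on the Western diet, against 4.66 to 7.34 (median 6.34) in controls. The groups overlapped on both diets, and the mean difference was -1.33 (SE 0.27, adjusted p = 0.0196). It was the single called gene among 21 of glucose metabolism and insulin signalling, whose median was 0.00. Pck1 of gluconeogenesis (-0.58, adjusted p = 0.405), the insulin receptor substrate Irs2 (-0.35, adjusted p = 0.434) and G6pc, glucose-6-phosphatase (0.01, adjusted p = 0.989), did not pass.

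Lpin1 encodes lipin-1, a phosphatidate phosphatase of triglyceride synthesis. Its level ran from 2.59 to 4.08 (median 2.83) with E171 on the normal diet, against 2.22 to 4.71 (median 3.77) without, and from 1.90 to 3.14 (median 2.23) with E171 on the Western diet, against 2.41 to 4.22 (median 3.49) without. It fell by 0.91 (SE 0.21, adjusted p = 0.0448), and its 4 probes gave -0.997, -0.91, -0.48 and -0.40, of which the first 2 were called. Its call was lost in 28 of 36 fits that left out an array or a slide. It was the single called gene among 22 of lipogenesis, whose median was 0.05. Srebf1, the main activator of that pathway, differed by 0.48 (adjusted p = 0.205) and Fasn, fatty acid synthase, by 0.22 (adjusted p = 0.671).

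**Figure D2:**
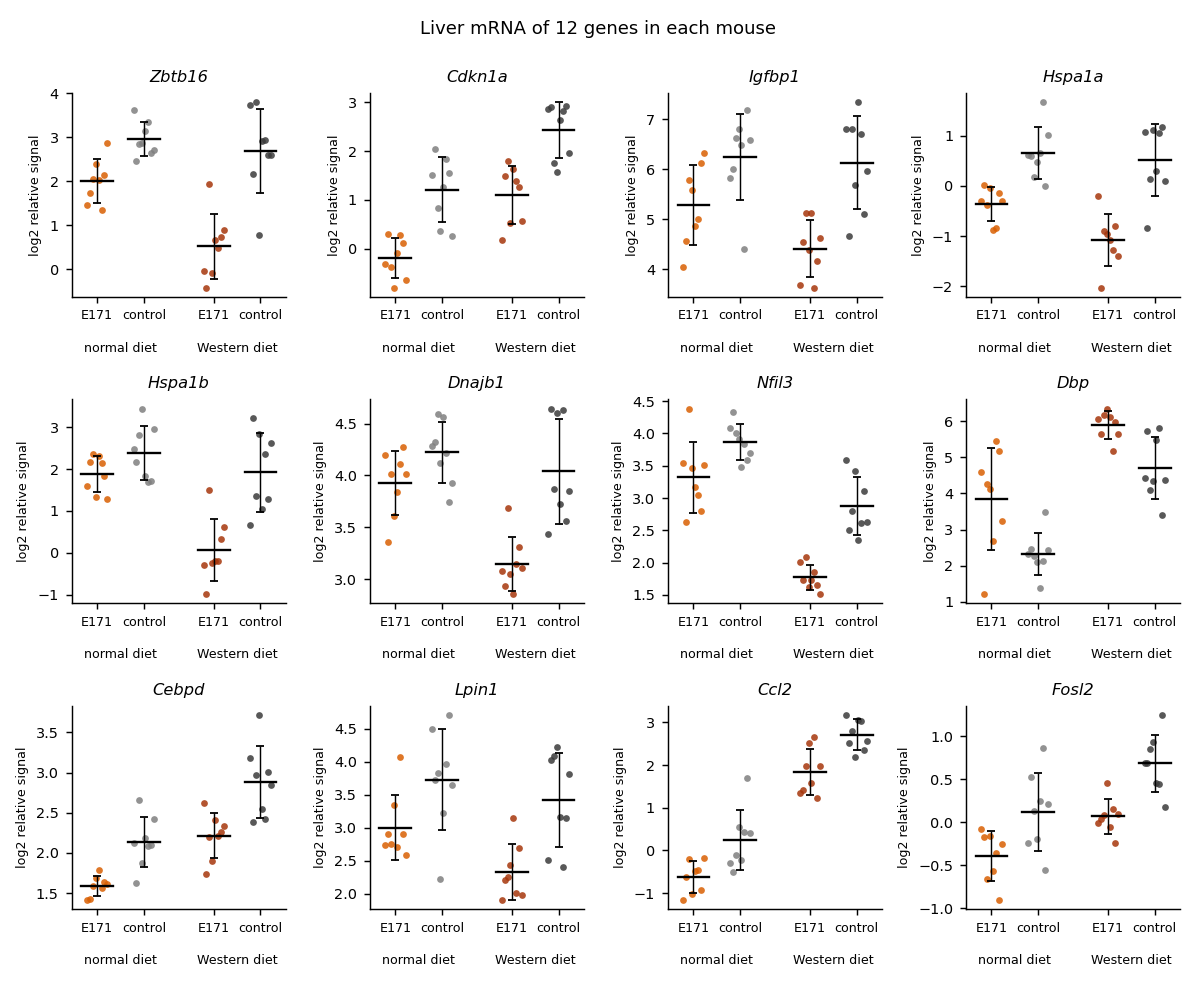
Level of 12 genes in each of the 32 livers (vertical axis, log2 signal relative to the 75th percentile of the array), by diet and treatment, with E171 mice in orange and brown and controls in grey; horizontal lines are means and bars SDs of 8 mice. The E171 mean is below the control mean on both diets for all genes but Dbp, and the points overlap except for Nfil3 on the Western diet.

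The circadian clock list held 1 called gene in each direction among 19. Dbp, an activator that binds D-box sites and peaks in the evening in mouse liver, ran from 1.22 to 5.46 (median 4.20) in E171 mice on the normal diet, against 1.37 to 3.47 (median 2.30) in controls. In Western-diet mice it ran from 5.18 to 6.35 (median 6.02) with E171, against 3.40 to 5.82 (median 4.40) without. The E171 mice on the normal diet were spread over the whole range of the controls and beyond it. Dbp rose by 1.35 (SE 0.30, adjusted p = 0.0387), with 0.82 to 1.93 within the slides and 1.31 for its other probe. Its call was lost in 22 of the 36 fits without an array or a slide, with an adjusted p of up to 0.283, and in 1 of 12 other settings.

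Nfil3 encodes a repressor that binds the same D-box sites as Dbp. It ran from 2.62 to 4.39 (median 3.32) in E171 mice on the normal diet, against 3.48 to 4.33 (median 3.87) in controls, and from 1.52 to 2.08 (median 1.73) in E171 mice on the Western diet, against 2.34 to 3.59 (median 2.71) in controls. The groups overlapped on the normal diet and not on the Western diet, where 0.204% of all probes did not overlap. Nfil3 fell by 0.82 (SE 0.13, adjusted p = 0.0029), with -1.20 to -0.59 within the slides.

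Other clock genes lay on either side of 0 without passing by their brightest probe. Arntl, the core activator BMAL1, had -0.82 (adjusted p = 0.0604) by that probe and -0.82 (adjusted p = 0.0120) and -0.76 (adjusted p = 0.0477) by its other probes; this gene is named here with its values known. The repressor Per3 had 0.84 (SE 0.22, adjusted p = 0.0894), Tef, a relative of Dbp, 0.52 (adjusted p = 0.107), and Hlf, another relative, 0.37 (adjusted p = 0.157). Per1, which glucocorticoids also induce, had -0.54 (adjusted p = 0.401), and the repressor Ciart 0.91 (adjusted p = 0.362). The hour at which each liver was taken is not in the labels, and its part in these values was not tested.

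The promoter of Per3 is shown because it alone among the 16 clock genes with a promoter in the table holds the D-box TTATGTAA, on either strand, in the 250 bases before its start. It holds 2 copies, in capitals, which begin 205 and 158 bases before the start; 269 of 32851 promoters (0.819%) hold at least 1. The sequence is from RefSeq for GRCm38.p6, on the minus strand.
Per3, chr4:151044666-151044915: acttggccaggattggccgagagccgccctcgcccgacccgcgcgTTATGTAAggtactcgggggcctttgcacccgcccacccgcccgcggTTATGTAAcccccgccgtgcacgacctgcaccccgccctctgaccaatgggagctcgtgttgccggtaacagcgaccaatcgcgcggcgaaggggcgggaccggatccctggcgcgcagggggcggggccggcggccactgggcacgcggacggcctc
The levels of Per3 averaged -0.51 and 0.64 in E171 mice on the normal and the Western diet, against -1.32 and -0.22 in controls.

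Among 18 measured targets of p53, Cdkn1a and Trp53inp1 fell and the other 16 did not pass. The list had 15 negative differences, against 44.7% of all genes, and a median of -0.16. Cdkn1a encodes p21, an inhibitor of the cyclin-dependent kinases (probe at chr17:29237377-29237436, mm9). It ran from -0.80 to 0.31 (median -0.20) with E171 on the normal diet, against 0.27 to 2.05 (median 1.39) without, and from 0.18 to 1.80 (median 1.32) with E171 on the Western diet, against 1.58 to 2.94 (median 2.74) without. All 16 E171 mice lay below the control median of their diet. Cdkn1a fell by 1.37 (SE 0.19, adjusted p = 0.000732), by similar amounts on the normal diet (-1.40) and the Western diet (-1.33). Its 2 dimmer probes, well above background on 13 and 7 of the 32 arrays, gave -0.92 (adjusted p = 0.0784) and -0.66 (adjusted p = 0.289).

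Trp53inp1, a p53-induced protein of cell death and autophagy, fell by 0.62 (SE 0.13, adjusted p = 0.0226). On the Western diet its range with E171 (2.05 to 2.38) lay wholly under that without (2.68 to 3.62), and on the normal diet the groups overlapped. Mdm2, the ubiquitin ligase of p53 (-0.11, adjusted p = 0.329), and Bax, an effector of cell death (-0.07), did not pass, nor did Eda2r, a death receptor (-0.82, adjusted p = 0.0695). Of 26 cell cycle genes 24 had a negative difference, with a median of -0.26 (-0.51 to -0.01 within the slides), and none was called by limma, with 6 lower at an unadjusted p-value under 0.05, against 4.72% of all genes. H2bc23, a replication-dependent histone H2B, was called lower, but it entered the test through the Western-diet controls alone, so its size is not given. It was well above background on 2 of 8 E171 arrays and 8 of 8 control arrays on the Western diet and on none on the normal diet.

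The monocyte attractants Ccl2 and Ccl7 fell with E171. Ccl2, or MCP-1, ran from -1.16 to -0.17 (median -0.56) in E171 mice on the normal diet, against -0.50 to 1.69 (median 0.15) in controls, and from 1.23 to 2.66 (median 1.78) in E171 mice on the Western diet, against 2.19 to 3.18 (median 2.69) in controls. The difference was alike on both diets (-0.88 and -0.87), with a mean of -0.87 (SE 0.17, adjusted p = 0.0188). Ccl7, or MCP-3, fell by 1.04 (SE 0.20, adjusted p = 0.0131), with -1.09 on the normal diet and -0.98 on the Western diet. It was well above background on 2 of the 8 normal-diet E171 arrays and on all others. These were the called genes among 26 cytokines and chemokines, whose median was -0.15; Cxcl1, a neutrophil attractant, had -1.26 (SE 0.44, adjusted p = 0.224).

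Kupffer cell and macrophage markers, measured beside these chemokines, had a median of -0.05, with 12 of 16 lower and none called. Their mean level per mouse ran from 1.61 to 2.64 with E171 on the normal diet, against 1.20 to 2.97 without, and from 2.10 to 3.55 with E171 on the Western diet, against 1.87 to 3.20 without. Whole liver was measured, so fewer cells of a type and less RNA per cell cannot be told apart. Fosl2, an AP-1 subunit, was the called gene among 21 immediate early genes, of which 20 had a negative difference, against 44.7% of all genes. The median was -0.27, and 10 were lower at an unadjusted p-value under 0.05, against 4.72% of all genes. Fosl2 ran from -0.91 to -0.08 (median -0.31) with E171 on the normal diet, against -0.56 to 0.87 (median 0.17) without, and from -0.25 to 0.46 (median 0.06) with E171 on the Western diet, against 0.18 to 1.25 (median 0.69) without. It fell by 0.57 (SE 0.11, adjusted p = 0.0188). Fos, another member of its family, had -0.72 (adjusted p = 0.159).

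Interferon-stimulated genes had a negative difference in 28 of 31 cases, against 44.7% of all genes, with a median of -0.16 (-0.35 to -0.09 within the slides). Oas2, an antiviral oligoadenylate synthetase, was the called one, at -0.45 (SE 0.10, adjusted p = 0.0446). It ran from 0.42 to 1.14 (median 0.66) with E171 on the normal diet, against 0.69 to 1.77 (median 1.03) without, and from 1.08 to 1.84 (median 1.66) with E171 on the Western diet, against 1.81 to 2.59 (median 2.01) without. Its call was lost in 24 of the 36 fits without an array or a slide. Ifi27, another interferon-induced protein, had -0.41 (adjusted p = 0.0556).

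**Figure D3:**
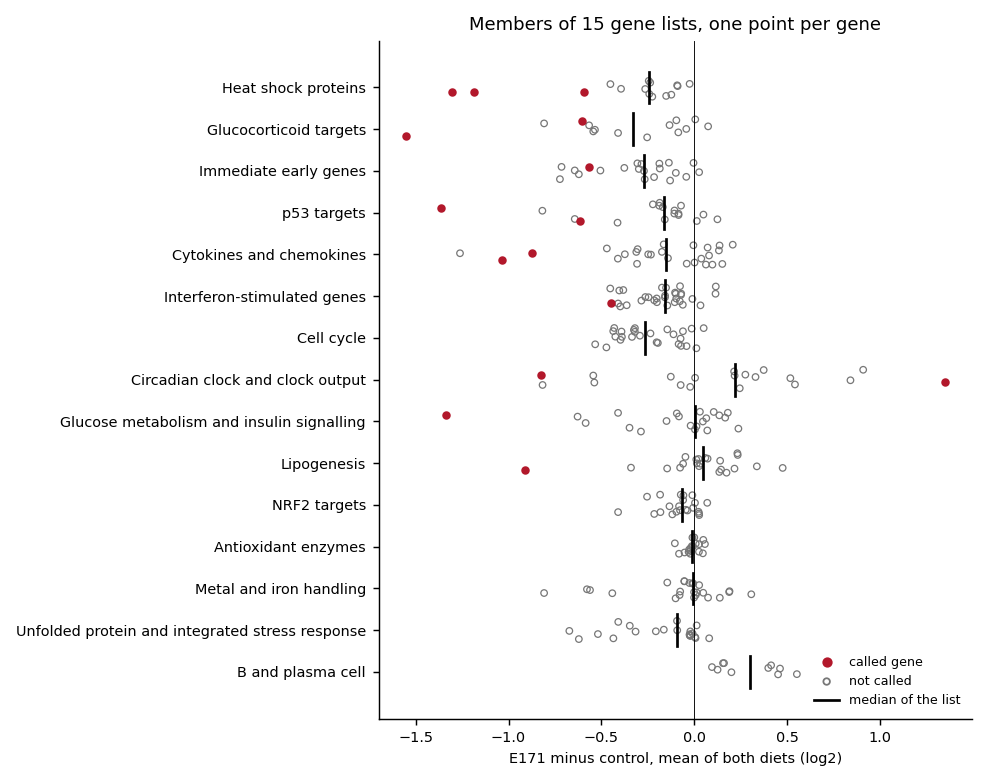
Difference between E171 and control mice, averaged over both diets (horizontal axis, log2), for the measured genes of 15 lists (rows); filled points are called genes, open points are not, and black lines are medians. The 15 heat shock genes all lie left of 0, and no gene of the NRF2, antioxidant, metal or unfolded protein lists is filled.

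Among the genes that rose were F3 and Tab1. F3 encodes tissue factor, the starter of blood clotting. It ran from -0.12 to 0.998 (median 0.14) with E171 on the normal diet, against -0.40 to 0.37 (median -0.13) without, and from 0.46 to 0.96 (median 0.66) with E171 on the Western diet, against -0.30 to 0.62 (median 0.09) without. F3 rose by 0.46 (SE 0.10, adjusted p = 0.0410), a call lost in 24 of the 36 fits without an array or a slide. Tab1, an activator of the kinase TAK1 in inflammatory signalling, rose by 0.35 (SE 0.07, adjusted p = 0.0200), with 0.06 to 0.74 within the slides. Its range on the Western diet began at 1.07 with E171, where that of controls ended at 1.07, both rounded. Ripor2, an inhibitor of the small GTPase RhoA, rose by 0.52 (SE 0.12, adjusted p = 0.0477), a call lost in 27 of those 36 fits and in 5 of 12 other settings.

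Cd180, a Toll-like receptor homologue of B cells and macrophages, rose by 0.47 (SE 0.10, adjusted p = 0.0348) by its brightest probe, and the lowest of its 4 probes gave -0.01. Its call was lost in 14 of the 36 fits without an array or a slide. All 10 measured B and plasma cell markers had a positive difference, against 55.3% of all genes (median 0.30, with 0.21 to 0.41 within the slides). None was called by limma, and 6 were at an unadjusted p-value under 0.05, against 6.12% of all genes that were higher at this level. The median was 0.17 in the deposited values. Ms4a1, or CD20, had 0.55 (adjusted p = 0.103), and Ighm, Igkc, Iglc2 and Blk were not measured. The mean level of these markers per mouse ran from -1.81 to -1.30 with E171 on the normal diet, against -2.03 to -1.71 without, and from -1.92 to -1.21 with E171 on the Western diet, against -2.11 to -1.65 without. Their part in the rise of Cd180 was not tested.

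Cd163l1, a scavenger receptor of the CD163 family, was measured on the Western diet and not on the normal diet, where it was well above background on 0 of 16 arrays. On the Western diet it was so on 8 of 8 E171 arrays (-4.76 to -3.38, median -3.99) and 2 of 8 control arrays (-7.37 to -4.93, median -6.14). It was called higher, but it entered the test through the Western-diet E171 mice alone, and no size is given for the mean of both diets, which holds 2 unmeasured groups. Ces1a, a carboxylesterase, was likewise measured on the Western diet alone, on all 16 arrays, with a difference of -0.92 there. Its call for the mean of both diets also includes the unmeasured normal-diet groups.

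Several called transcripts carry only provisional names. Gm36572 rose by 0.70 (SE 0.11, adjusted p = 0.00292). It ran from -3.34 to -2.14 (median -2.53) with E171 on the normal diet, against -3.54 to -2.55 (median -3.08) without, and from -2.68 to -1.88 (median -2.12) with E171 on the Western diet, against -3.71 to -2.71 (median -3.16) without. The Western-diet groups did not overlap. B230110G15Rik, Gm26510 and Fbxw22, an F-box protein, were called higher but were not measured on all arrays, so no size is given. B230110G15Rik was well above background on 12 of 16 E171 arrays and 2 of 16 control arrays and entered the test through the Western-diet E171 mice alone. Gm26510 was well above background on 8 and 4 arrays and also entered through the Western-diet E171 mice alone. On the normal diet it was so on 1 E171 array and 0 control arrays. Fbxw22 was so on 15 and 9 arrays and entered through the E171 groups alone. Olfr978 (0.79, adjusted p = 0.0383) and Olfr885 (0.59, adjusted p = 0.0321), which carry the symbols of olfactory receptors, were well above background on all 32 arrays. Their calls were lost in 20 and 11 of the 36 fits without an array or a slide.

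Further called transcripts were E230016M11Rik (0.56), AA413626 (0.34), Gm14964 (0.34) and the zinc finger gene Zfp941 (0.37), all higher, and 8030431J09Rik (-0.71), lower. Of these, Gm14964 lost its call in 15 and 8030431J09Rik in 27 of the 36 fits. Ptbp2, a splicing repressor, rose by 0.30 (SE 0.05, adjusted p = 0.00530) by its brightest probe, and 1 of its 3 probes gave -0.03. Rbm12b1, an RNA-binding protein gene, fell by 0.61 (SE 0.10, adjusted p = 0.00252); on the Western diet its highest E171 value and its lowest control value were both -1.19 after rounding, with no overlap. The difference had the same sign on all 4 slides for each of the 35 genes chosen by rule. The genes were chosen by their differences over these same slides, so this is no independent support. Apart from the 12 genes that lost their call in more than 4 of the 36 fits without an array or a slide, which besides those given above are Gm26510 (14) and Fbxw22 (19), the other 23 lost it in 1 to 4.

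Responses to particles or metals held no called gene by limma, which does not set them apart, since 0.364% of all genes were called. None of 22 NRF2 targets of the oxidative stress response was called (median -0.07). Of these 22, 3 were lower at an unadjusted p-value under 0.05, against 4.72% of all genes. Nqo1, a quinone reductase, had -0.06 (SE 0.12) and Hmox1, heme oxygenase, -0.25 (SE 0.09, adjusted p = 0.256). None of 18 antioxidant enzymes was called (median -0.01), with Sod1 at 0.06 (SE 0.05) and catalase, Cat, at -0.01 (SE 0.06). Among 24 genes of metal and iron handling, also without a call, the metallothioneins Mt1 and Mt2 had -0.58 (SE 0.31) and -0.81 (SE 0.36). None of 21 genes of the unfolded protein and integrated stress response passed (median -0.09, with 0.10 on the normal diet and -0.42 on the Western diet). Of these 21, 5 were lower at an unadjusted p-value under 0.05, against 4.72% of all genes. Of the 23 acute phase proteins 22 had a negative difference, against 44.7% of all genes (median -0.13), and none was called by its brightest probe. In all, 37 of 46 lists held no called gene, among them oxidative phosphorylation, cholesterol synthesis, fibrosis, MHC class II and all 12 lists of cell type markers.

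Several kept probes, of which at least 1 was called, whether the brightest or not, were found for 50 genes. For 45 of these genes some probes were called and others were not, and for 11 the probes differed in sign. The genes of this paragraph were chosen after their values were seen. Srsf5, a splicing factor, had the lowest adjusted p of all probes, 0.000533, for a probe at chr12:82047706-82048355 (mm9) that rose by 0.70 (SE 0.09). That probe ran from 1.70 to 2.98 (median 2.28) with E171 on the normal diet, against 1.47 to 2.05 (median 1.80) without, and from 2.31 to 2.83 (median 2.66) with E171 on the Western diet, against 1.42 to 2.29 (median 1.71) without. The brightest Srsf5 probe rose by 0.32 (SE 0.06, adjusted p = 0.0174), and a probe that begins 24 bases from the first gave 0.14 (SE 0.08, adjusted p = 0.495).

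Sfpq, another RNA-binding splicing factor, had 1 called probe of 5, at -1.25 (SE 0.24, adjusted p = 0.0151), while the others lay between -0.18 and 0.09. Fga, the fibrinogen alpha chain, had -0.74 (SE 0.12, adjusted p = 0.0029) by 1 probe and -0.18 (SE 0.08, adjusted p = 0.407) by the brighter one. Cp, ceruloplasmin, had -0.60 (SE 0.11, adjusted p = 0.00741) by 1 of 5 probes and -0.08 to 0.12 by the others. Zfp64, a zinc finger gene, had 0.85 (SE 0.17, adjusted p = 0.0152) by 1 of 3 and -0.10 and 0.01 by the others. Which transcript each probe reads was not analysed here.

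**Figure D4:**
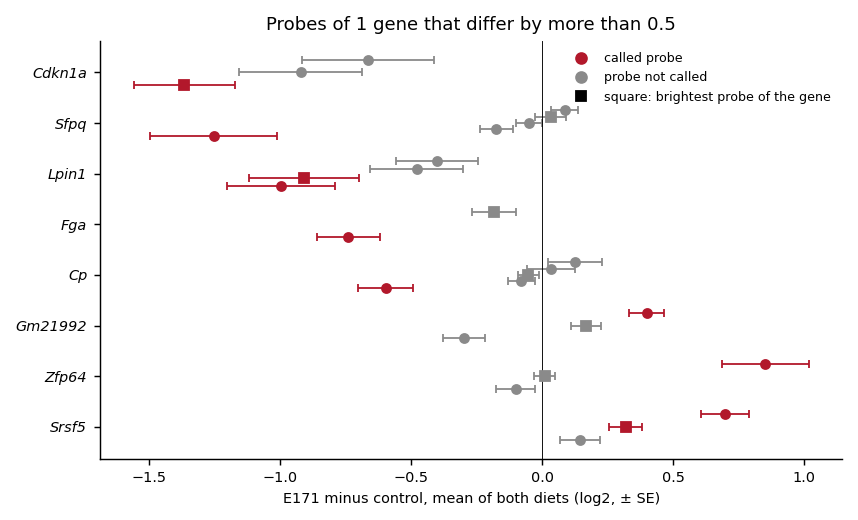
Difference between E171 and control mice, averaged over both diets (horizontal axis, log2, with SE bars), for each kept probe of 8 of the 9 genes with a called probe whose probes differ by more than 0.5 (rows); squares mark the brightest probe. In Sfpq, Fga, Cp and Zfp64 the called probe stands apart from the brightest one.

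Not all called probes were independent of each other. Of the 56 lower probes 7, at -0.44 to -0.40 (SE 0.08 to 0.09, adjusted p = 0.0131 to 0.0285), varied together between mice of the same group: Pearson's r ran from 0.77 to 0.97 and Spearman's rho from 0.76 to 0.97 over 21 pairs in 32 mice, with a permutation p of at most 2.0e-05 each and r of 0.71 to 0.96 without the 2 mice farthest from the median. The files place 5 of them on chromosome 13, 1 on chromosome 1 and 1 on chromosome 15, and 1 of the 7 has a symbol, AA414992. The probes on chromosomes 1 and 15 were taken in because r with each of the 5 was at least 0.75. Their correlations and permutation p-values are therefore largely fixed by this choice. The 5 on chromosome 13 are shown because each shares a run of at least 15 bases, in capitals, with another of them. Positions are in mm9, and the sequences are those of the probes.
A_55_P2003981, chr13:68137962-68138021, minus strand: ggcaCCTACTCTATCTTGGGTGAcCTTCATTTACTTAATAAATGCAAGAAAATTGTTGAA
A_55_P2119737 (AA414992), chr13:68321651-68321710, plus strand: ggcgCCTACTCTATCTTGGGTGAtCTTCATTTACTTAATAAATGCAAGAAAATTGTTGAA
A_55_P2032419, chr13:68223652-68223711, minus strand: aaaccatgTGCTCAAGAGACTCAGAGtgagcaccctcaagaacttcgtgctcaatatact
A_66_P121007, chr13:68627935-68627994, minus strand: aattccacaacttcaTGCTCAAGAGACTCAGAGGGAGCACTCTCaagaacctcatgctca
A_55_P2060849, chr13:68368025-68368084, minus strand: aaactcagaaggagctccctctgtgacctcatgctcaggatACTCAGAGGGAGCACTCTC
The first 2 share 55 marked bases. A_66_P121007 shares a run of 18 bases with A_55_P2032419 and another of 19 bases with A_55_P2060849. Of 7 kept probes that hold a run of at least 15 bases from any of these 5, the other 2, for 5830426C09Rik (0.09) and Cyba (-0.02), were not called.

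A_55_P2003981 averaged 2.93 and 3.52 in E171 mice on the normal and the Western diet, against 3.43 and 3.87 in controls. The difference of the 7 probes was -0.51 to -0.44 on the normal diet and -0.43 to -0.35 on the Western diet, so that these transcripts, unlike most called probes, did not differ more on the Western diet. Outside these 7, 6 pairs of called neighbours lay within 100 kb of each other, and all 6 had the same sign. They include Ccl2 with Ccl7 (9.95 kb apart), Rbm12b1 with its relative Rbm12b2 (-0.36, adjusted p = 0.0499), whose other probe shares a run of 26 bases with the Rbm12b1 probe, so that one may read the other, and Foxf1, a mesenchymal transcription factor (0.28, adjusted p = 0.0403), with the long noncoding RNA Fendrr (0.23, adjusted p = 0.0383). Probe A_52_P24690, unnamed in the files, lay 48.5 kb from an Arntl probe on the same strand and fell by 1.07 (adjusted p = 0.00138).

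The effect was larger on the Western diet for most called probes. Of the 120 probes, 117 had the same sign on both diets, against 57.4% of all probes. They were called by the mean of both diets, which favours probes whose differences have the same sign. Of the 117 with the same sign, 100 had the larger difference on the Western diet, and 42 had more than 2 times the size there. Over all probes, whatever their signs, 59.7% had the larger difference on the Western diet. On the normal diet alone no probe was called by limma, with 1499 probes (4.19%) at an unadjusted p-value under 0.05 and 0 calls in any of the 48 settings tried. The Western diet alone gave 126 probes (0.352%), of which 59 are among the 120. That count was 118, 2, 5 and 9 without slide 1, 2, 3 and 4, and it ran from 35 without replicate 3 of the Western-diet controls to 239 without their replicate 1. It moved by more than 1.5 times for 13 of the 16 Western-diet arrays. Without replicate 1, 2, 4, 5, 6, 7 or 8 of the E171 mice it was 56, 50, 73, 52, 193, 73 and 55, and without replicate 2, 5, 7 or 8 of the controls 196, 63, 36 and 197. A test of the difference between the diets called 0 probes, with 1794 at an unadjusted p-value under 0.05 and a lowest adjusted p of 0.0848, so it was not shown that any gene responded differently on the diets. Of the 120 probes 35 had an unadjusted p-value under 0.05 in that test.

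The diets share no mice, so each can be set against the other. They are not fully independent, since mice on different diets may be littermates and every slide carried mice of both diets. Their p-values also share 1 estimate of the spread per probe, taken from all 32 mice. A low estimate lowers the p-value on both diets at once. How much this raises the shares of probes at a p-value under 0.05 on both diets was not tested. Over all 35777 probes the differences on the diets correlated weakly (Pearson's r = 0.24, Spearman's rho = 0.22 across probes, which are not independent replicates), and 57.4% had the same sign. Of the 126 probes called on the Western diet, 106 (84.1%) had the same sign on the normal diet, and 28 (22.2%) were also at an unadjusted p-value under 0.05 there, against 2.84% of all probes. Their median difference in that direction was 0.14 on the normal diet, against a median size of 0.62 on the Western diet. Of the 126 probes with the lowest p on the normal diet, 93 (73.8%) had the same sign on the Western diet and 40 (31.7%) were also at a p-value under 0.05, against 8.27% of all probes.

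**Figure D5:**
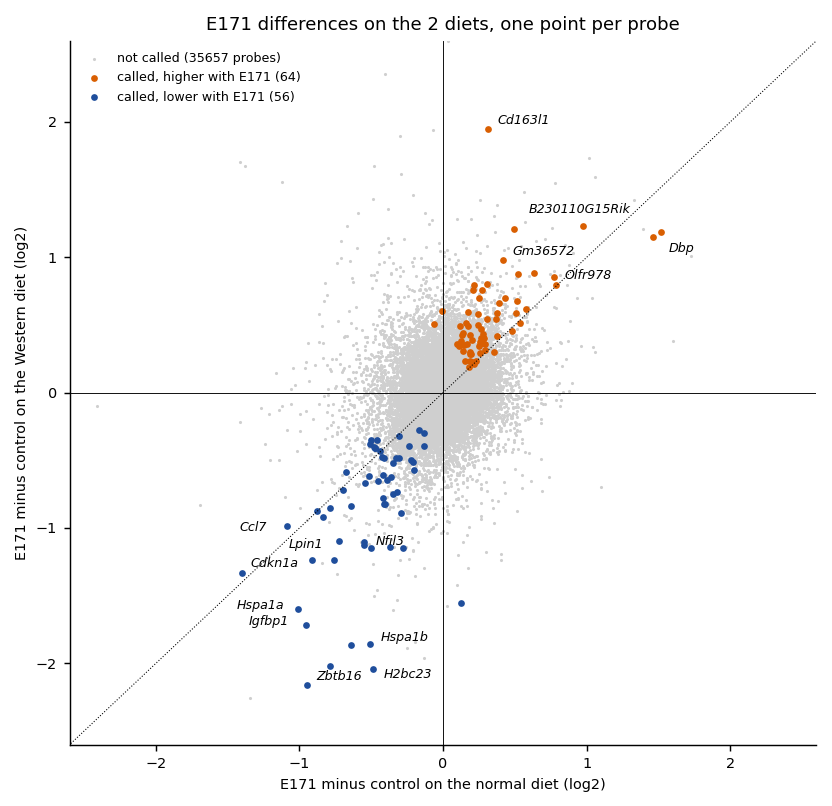
Difference between E171 and control mice on the Western diet (vertical axis, log2) against that on the normal diet (horizontal axis, log2) for 35777 probes; orange and blue points are probes called higher and lower in the mean of both diets, grey points the other 35657, and the dotted line marks equal differences. Most blue points lie below the dotted line and most orange points above it. Of the 117 called probes with the same sign on both diets, 100 differ more on the Western diet.

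The genes whose groups overlapped least did so on the Western diet. Of the 120 called probes 28 had no overlap between E171 and control mice there, against 0.204% of all probes, and 0 had none on the normal diet, against 0.0028% of all probes. The 120 were called by their differences in these same mice, so a share above that of all probes was built in. Among the 35 named genes the 9 without overlap on the Western diet were Nfil3, Trp53inp1, Rbm12b1, Ptbp2, AA413626, Tab1, Gm36572, B230110G15Rik and Cd163l1. The last 2 had few controls well above background and entered the test through the Western-diet E171 mice alone. Cdkn1a, Ccl2, Ccl7, Cebpd and Fosl2, in contrast, had differences on the normal diet of -1.40, -0.88, -1.09, -0.54 and -0.52, against -1.33, -0.87, -0.98, -0.67 and -0.62 on the Western diet. Zbtb16, Hspa1b and Dnajb1 had -0.95, -0.51 and -0.29 on the normal diet, against -2.16, -1.86 and -0.89 on the Western diet.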

How the data were processed

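Liver RNA of 32 mice in 4 groups of 8 was measured on one-colour (Cy3) Agilent arrays, 1 array per mouse. Spot intensities were background-corrected by the authors with Agilent Feature Extraction 10.10.1.1, per the file headers. The authors' deposited table holds log2 values of 36695 of the 56605 probes, with a median of 7.12 to 7.18 per array. It correlated with the log2 scanner values at 0.989 or more. Its scale is log2, its centring is not stated, and it served as an alternative; limma is named in the submitters' processing notes.

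From the scanner files, log2 processed signal minus the 75th percentile of the array was computed. Flagged outlier spots (42 to 91 per array) were left out, and spots of 1 probe were averaged. The filter on dim probes, stated with the results, kept 35777. limma 3.58.1 in R 4.3.3 fitted 1 mean per group (28 residual degrees of freedom) without trend, and p-values were adjusted by Benjamini-Hochberg over all kept probes with a threshold of 0.05, two-sided. The main fit had no slide term. The script was tested on simulated data. The number of arrays limits the precision; the median SE of a difference was 0.08.

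Probes took gene symbols from RefSeq by accession (33898), symbol (9462) or synonym (487), kept the file's name (1950) or stayed unnamed (10808). Probe coordinates are those of the files (mm9). The genes named were the called genes with a symbol and the same sign on both diets that had the 15 largest rises, the 15 largest falls, the 5 lowest adjusted p in each direction, or were among at most 4 called members of a gene list. This gave 35 genes, and the text says where another was chosen after its values were seen or comes from a list. The members, gene lists and tests were chosen with earlier results of these data known, so no list is independent support for its direction. Alternatives were the scaling, background correction, dim-probe filter, model, slide and replicate block, array weights, the deposited table, and leaving out each array or slide. Single values of some genes are not reported here.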

Additional observations from a re-analysis of the deposited data

Results flagged for a closer look

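For the 35 named genes, each group of 8 mice was searched for a mouse that stands apart by Dixon's test. This was the case in 8 of 140 groups (5.71%), and chance gives about 1 in 20. H2bc23 had its highest value of -6.62 in replicate 6 of the normal-diet E171 mice, and Ces1a its highest of -5.87 in replicate 7 of the same group. Neither gene was well above background in that group. Zfp941 had its lowest value of -2.0 in that same replicate 7.

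Among normal-diet controls, 8030431J09Rik was lowest at -0.51 in replicate 6, Rbm12b1 highest at 0.05 in replicate 7 and Cd163l1 highest at -6.02 in replicate 5. Among Western-diet controls, Oas2 was highest at 2.59 in replicate 3 and B230110G15Rik lowest at -6.84 in replicate 6. No array had more than 2 of these values.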

How the results depend on the processing

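With other processing, the count of 120 probes for the mean of both diets became 110 after quantile normalization, 122 after centring on the median, 108 after normexp, 105 in the deposited values, 122 for probes measured on all arrays, 88 with 1 probe per gene, 120 with slide as a block, 103 in the additive model and 131 with a trended, robust spread. It was 63 without a filter on dim probes and 197 with array weights. The Western-diet count of 126 became 192 in the deposited values, 82 without a filter and 241 with array weights, and the interaction had 1 call without a filter and 1 with weights. The cause was not tested. The normal-diet count was 0 throughout.

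Leaving out 1 array gave 63 to 168 calls for the mean of both diets, 35 to 239 for the Western diet and 0 to 2 for the interaction. Leaving out 1 slide gave 66, 26, 2 and 23 calls for the mean of both diets, 118, 2, 5 and 9 for the Western diet and 1, 0, 0 and 0 for the interaction, with fewer mice in each fit.

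The replicate numbers of the titles were not used to pair the samples in the main fit. Over 48 pairs of same-numbered mice the deviations from the group means correlated at -0.28 to 0.56 (median 0.08), 22 pairs were over 0.1, 6 were the best match of a mouse and 19 shared a slide. With the replicate number as a block the counts were 210 for the mean of both diets, 245 for the Western diet and 1 for the interaction. Without it they were 120, 126 and 0. What same-numbered mice may share was not tested.

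No named gene reversed its sign. Of 35, 15 stayed called in all 12 settings, 373 of 413 values keeping their call, and 0 stayed called in all 36 fits without an array or slide, where 956 of 1260 did. Of the 35 genes 7 were not well above background on all arrays, so that their mean differences rest partly on values not well above background.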

Other observations

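T and NK cell markers had a positive difference in 14 of 15 cases, against 55.3% of all genes (median 0.15), with none called by limma and 0 at an unadjusted p-value under 0.05, and a median of -0.18 to 0.33 within the slides. MHC class II genes had one in 8 of 9 (median 0.14). Lipid-associated macrophage markers had a negative one in 11 of 12 (median -0.09), and their mean level per mouse ran from 2.19 to 3.46 with E171 on the Western diet, against 1.62 to 3.57 without.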
